A study of Mus musculus with 72 samples.

Results

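The comparison set fed mice that lacked the conserved noncoding element E5 against fed wild types labelled with the same element, in hypothalamic RNA. Its members were chosen by their labels alone: 4 knockout and 4 wild type libraries, 8 of the 72 in the series, all from adult B6 mice, all labelled Fed, with batch labels that share 1 number. Every library was total RNA sequencing of hypothalamus, and the question, as the series' design gives it, was whether removal of the element changes gene expression. Another 8 libraries, 4 knockouts and 4 wild types of the E5 line after 72 h without food, served to set the fed estimates beside mice that did not enter them. The labels give neither the position or length of the deletion, nor the number of founder animals behind the knockout, nor sex. They also do not say whether a library is 1 animal or a pool, so the p-values below measure the spread between these libraries. The protocol field describes the 72 h fast for every library, and the feeding state was therefore taken from the treatment label of each.

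The deposited tables for this line carry the name of Fto, the gene for an RNA demethylase whose introns hold enhancers that reach the neighbouring Irx3 and Irx5 genes, and variants there are linked to body weight in humans. The hypothalamus holds the neurons that sense energy stores and release peptides that drive or curb feeding, and it also sets the neuroendocrine stress axis and the release of vasopressin and oxytocin. Several groups of genes described below belong to protein folding. Cytosolic chaperones of the heat shock family are switched on by the factor Hsf1 when unfolded protein builds up, and a separate set of chaperones and disulfide isomerases inside the endoplasmic reticulum (ER) is switched on by the unfolded protein response.

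Depth was 18614527 to 26778643 counts per library, and 18206 of the 55401 genes listed passed the filter on low counts. Levels are given in scaled CPM, the library's counts put on a common total and further scaled by its normalization factor. Hypothalamic transcripts were present in all 8 libraries, with Hcrt at 54.0 to 81.4, Avp at 99.3 to 161 and Otp at 24.9 to 38.9. Of the regional transcription factors looked for, Hmx2, Hmx3 and Dlx1 were listed at 0 in all 8. Knockout 4 stood apart from the other libraries. Its Spearman correlations with them over genes began at 0.981, against at least 0.989 among the other 7, and it lay at the far end of a first principal component that held 39.7% of the variance. Knockout 4 held the highest summed level of neuron markers, 4142 CPM against 3537 to 3803 in the other libraries. It was also highest for astrocyte (3803 against 2546 to 3420), oligodendrocyte (3887 against 2540 to 3176) and microglia markers (167.5 against 101.4 to 145.5). Ribosomal protein genes summed to 5032 in it against 2522 to 3999. Among the lists where its sum was lowest were thalamic markers, 1102 against 1259 to 2103, and oligodendrocyte precursor markers, 544.6 against 638.4 to 785.7. Of 9 tested thalamic markers, knockout 4 was the lowest library for 5 and the highest for 1. Of 9 tested precursor markers it was the highest for 5 and the lowest for 1, so their sum does not stand for most members. A lower share of cells of a type and less RNA per cell cannot be told apart in such bulk samples. Several results below are given with and without this library, and a fed estimate given once is from all 8 libraries.

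No gene passed the test of knockout against wild type. edgeR's quasi-likelihood test with Benjamini-Hochberg adjustment called 0 of 18206 genes (0.0%), and the smallest adjusted p was 0.9999. At an unadjusted p under 0.05 the same fit held 514 genes (2.82%), of which 166 were higher (0.912%) and 348 lower (1.91%) in knockouts. DESeq2 called 1 gene (0.00331% of those it tested), Tsc22d3, with an adjusted p of 0.0098. The edgeR likelihood ratio test, chosen after the data were seen, called 2, Gm18129 and Gadl1. The spread between libraries, expressed as a biological coefficient of variation, was 0.138, and the median standard error of a log2 difference was 0.142. Without knockout 4 edgeR again called 0 genes, while those with an unadjusted p under 0.05 numbered 931 (5.09%), 516 of them higher (2.82%) and 415 lower (2.27%). All genes named below are therefore a ranking and a description, and none of their differences passed the adjusted threshold in edgeR.

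Fto and its neighbours were close to equal in the 2 genotypes. Fto (ENSMUSG00000055932, chr8:91313525-91668439 on the plus strand, mm10) was at 341, 320, 390 and 364 scaled CPM in wild types 1 to 4 and at 361, 367, 391 and 278.7 in knockouts 1 to 4. The groups overlapped, knockout 4 was the lowest library, and the log2 difference of knockout over wild type was -0.02 with a 95% interval of -0.27 to 0.24. In percent, that interval runs from 17.3% lower to 17.9% higher. Rpgrip1l, a protein of the ciliary transition zone whose gene starts 0.3 kb from the start of Fto, was at 52.9 ± 3.17 in wild types and 54.5 ± 3.36 in knockouts (mean ± SD, n = 4 each). Its difference was 0.04 ± 0.08, with an interval of -0.13 to 0.22.

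The 3 Iroquois homeobox genes beyond Fto, which encode transcription factors, were expressed at low levels. Irx3 was at 1.71, 3.32, 2.87 and 1.86 in wild types and 2.49, 2.41, 3.10 and 2.90 in knockouts. Irx5 was at 3.65, 4.20, 3.92 and 4.89 in wild types and 4.47, 2.45, 6.25 and 3.50 in knockouts. Irx6 was at 0.760, 0.997, 0.633 and 1.12 in wild types and 0.675, 1.23, 1.33 and 0.966 in knockouts. All 3 pairs of groups overlapped, and the log2 differences were 0.15 for Irx3 (95% interval -0.35 to 0.66), -0.0033 for Irx5 (-0.54 to 0.53) and 0.27 for Irx6 (-0.36 to 0.89). The direction for Irx5 changed sign under RLE normalization, at 0.0064. Reads from Irx3 and its antisense partner Irx3os cannot be told apart where they overlap, because the strand of the libraries is not stated. Within 2 Mb of the start of Fto 20 of 75 annotated genes were tested, 13 with a positive and 7 with a negative estimate. None of the 20 had an unadjusted p under 0.05, against 2.82% of all genes tested, and their smallest p was 0.166, for Ces1d.

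**Figure D1:**
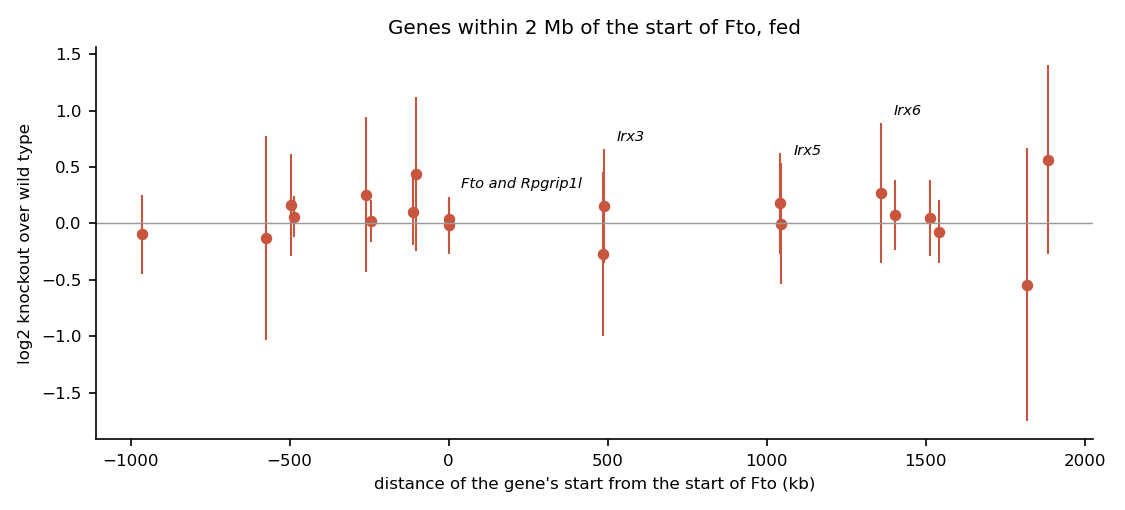
Log2 difference of knockout over wild type in fed mice (vertical axis) for the 20 tested genes that start within 2 Mb of the start of Fto, by distance of their start from it in kb (horizontal axis). Points are edgeR estimates and bars their 95% intervals. Every bar crosses 0, and the bars of Fto and Rpgrip1l at distance 0 are among the narrowest.

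The genes ranked highest by p among those above a mean log2 CPM of 1, predicted gene models left out, were led by Tsc22d3 (ENSMUSG00000031431, chrX:140539528-140600659, minus strand). This gene encodes the glucocorticoid-induced leucine zipper protein GILZ. Tsc22d3 was at 53.7, 56.8, 55.2 and 54.0 scaled CPM in wild types and at 70.4, 75.4, 72.9 and 66.6 in knockouts. Every knockout was above every wild type, and the groups were tight, at 54.9 ± 1.404 and 71.3 ± 3.72 (mean ± SD, n = 4 each). The log2 difference was 0.38 ± 0.07 (standard error), with an unadjusted edgeR p of 0.00022 and an adjusted p of 0.9999. Leaving out each library in turn gave 0.35 to 0.42.

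Zbtb40, a zinc finger protein with a BTB domain, was at 24.7, 24.6, 27.5 and 25.7 in wild types and 31.2, 34.7, 38.2 and 33.0 in knockouts, again without overlap. Its log2 difference was 0.42 ± 0.09. Slc38a2, a sodium-coupled transporter of neutral amino acids that cells induce under amino acid stress, was at 102, 92.8, 99.0 and 91.8 in wild types and 102, 138, 130 and 143 in knockouts. Knockout 1 lay just above the highest wild type, and the other 3 lay well above it. The difference was 0.41 ± 0.11.

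P4ha1 and P4ha2, which encode catalytic subunits of collagen prolyl 4-hydroxylase, an enzyme of the ER, were both among the 12 genes. P4ha1 was at 43.0, 41.6, 46.4 and 45.5 in wild types and 54.3, 59.8, 57.8 and 51.1 in knockouts. P4ha2 was at 18.7, 21.3, 21.1 and 22.5 in wild types and 26.2, 27.3, 28.7 and 22.7 in knockouts. Neither gene's groups overlapped, although knockout 4 of P4ha2 was level with the highest wild type, and the log2 differences were 0.34 ± 0.08 and 0.33 ± 0.10. Rpain, which carries replication protein A into the nucleus, was at 7.26 ± 0.67 in wild types and 9.35 ± 0.76 in knockouts (mean ± SD, n = 4 each), a log2 difference of 0.37 ± 0.11. Over all genes tested, 166 (0.912%) had every knockout above every wild type and 257 (1.41%) every knockout below.

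**Figure D2:**
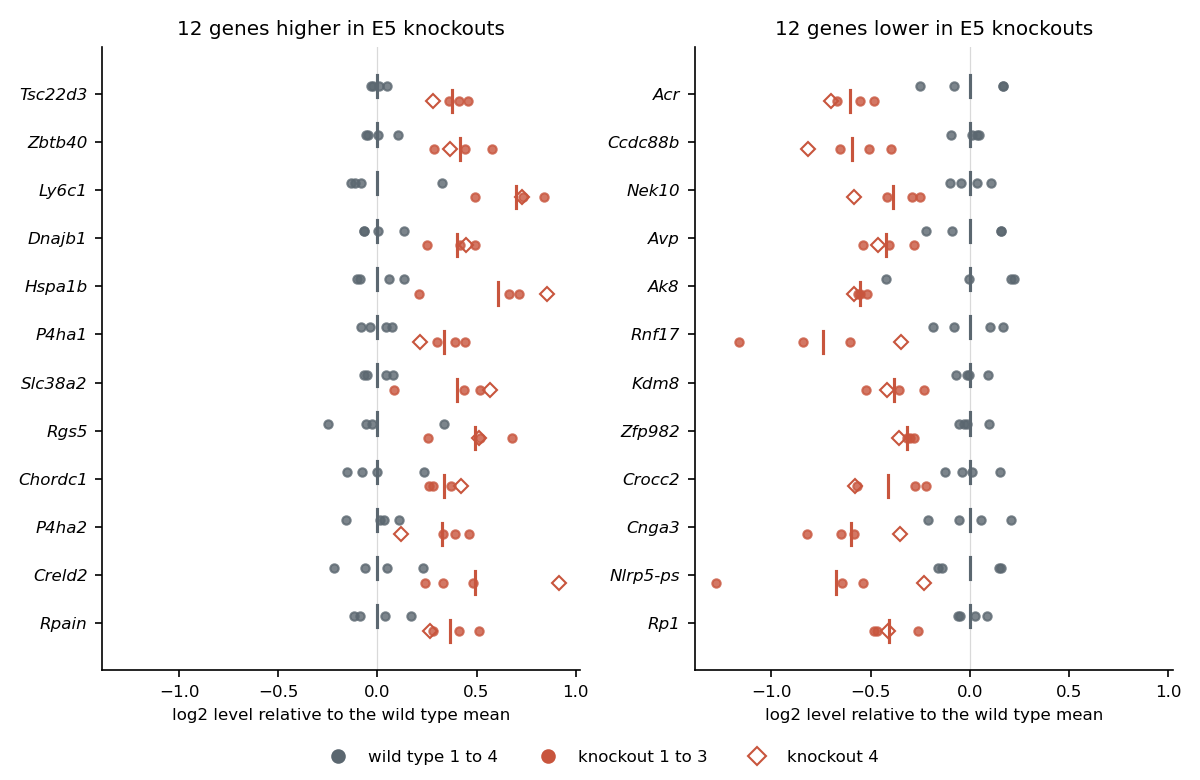
Level in each library relative to the mean of the wild types, on a log2 scale (horizontal axis), for the 12 genes per direction with the smallest p in the fed comparison (vertical axis). Grey points are wild types, filled red points knockouts 1 to 3, open diamonds knockout 4, and vertical ticks the group means. Knockout 4 lies among the other knockouts for Zbtb40 and Dnajb1, nearest the wild types for Tsc22d3, and beyond them for Hspa1b and Creld2.

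Heat shock chaperones were mostly higher in knockouts, and 3 of them (Dnajb1, Hspa1b and Chordc1) were among the 12 genes ranked highest. The list of 29 holds mostly cytosolic chaperones, with the mitochondrial Hspd1 and Hspe1 and the factors Hsf1 and Hsf2. Of these 28 were tested, 25 had a positive and 3 a negative estimate, and 6 were higher at an unadjusted p under 0.05 (0.912% of all genes were). None was lower at that threshold. The median log2 difference was 0.21, against 0.0026 over all genes tested, of which 50.9% had a positive estimate. Without knockout 4 the median was 0.09, with 25 of 28 estimates positive (49.6% of all genes were then) and 5 with an unadjusted p under 0.05 (2.82% of all genes were then, counting those higher). Knockout 4 was the highest of the 8 libraries for 20 of the 28 genes, against 29.0% of all genes tested. The summed level of the list was 3502, 3872, 2948 and 3256 CPM in wild types and 3514, 3813, 3211 and 5281 in knockouts. Only knockout 4 lay above the wild type range of that sum.

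Dnajb1 (ENSMUSG00000005483, chr8:83608193-83612653, plus strand), a J-domain co-chaperone that hands substrates to Hsp70, was at 25.9, 29.9, 25.9 and 27.3 scaled CPM in wild types and 36.3, 38.2, 32.4 and 37.0 in knockouts. The groups did not overlap, and knockout 4 lay within the range of the other knockouts. The log2 difference was 0.40 ± 0.08, with an unadjusted p of 0.0006, and it was 0.39 without knockout 4. Hspa1b (ENSMUSG00000090877, chr17:34956436-34959238, minus strand), a stress-induced Hsp70, was at 5.74, 6.36, 5.69 and 6.69 in wild types and 7.06, 9.67, 10.01 and 11.03 in knockouts. All knockouts were above all wild types, knockout 1 narrowly so, and the difference was 0.63 ± 0.15. Its near-identical copy Hspa1a did not pass the filter, with 4, 7, 7 and 8 counts in wild types and 14, 14, 8 and 12 in knockouts. How reads were divided between the 2 copies is not stated, so the value of each is uncertain.

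Chordc1, a co-chaperone of Hsp90, was at 72.7, 61.7, 55.5 and 58.7 in wild types and 80.1, 74.0, 75.2 and 82.7 in knockouts, without overlap, for a log2 difference of 0.33 ± 0.09. Cryab, the small heat shock protein alpha-B crystallin that oligodendrocytes also make in quantity, was at 24.1, 21.2, 23.9 and 22.0 in wild types and 24.6, 31.1, 25.1 and 31.7 in knockouts. Its groups did not overlap, but knockouts 1 and 3 lay close to the highest wild type. Ahsa2, which is related to the Hsp90 activator Ahsa1, was at 29.9, 28.2, 26.2 and 30.02 in wild types and 30.7, 36.8, 33.8 and 33.4 in knockouts. The last 2 differences were 0.30 ± 0.11 for Cryab and 0.24 ± 0.08 for Ahsa2.

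The abundant chaperones Hspa8 and Hsp90aa1 varied within the groups. Hspa8, the constitutive Hsp70, was at 666, 788, 577 and 619 in wild types and 738, 801, 616 and 1126 in knockouts. Hsp90aa1 was at 578, 540, 397 and 475 in wild types and 520, 500, 452 and 746 in knockouts. In both genes knockout 4 was far above every other library. Knockouts 1 to 3 lay within the wild type range for Hsp90aa1, and for Hspa8 only knockout 2 was above it, narrowly. The log2 difference of Hspa8 was 0.31 ± 0.17 with all libraries and 0.12 without knockout 4, and that of Hsp90aa1 was 0.16 ± 0.17 and -0.01. Hsph1, a nucleotide exchange factor for Hsp70, had an unadjusted p of 0.048 with all libraries and 0.09 without knockout 4. The factor Hsf1 itself was nearly equal, with a difference of 0.0016, and Bag3 and Hspb8 had estimates of -0.02 each.

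Chaperone promoters were searched for the element that Hsf1 binds. Windows of 300 bases around the transcript start, from 250 before it to 50 after, were taken from RefSeq on GRCm38.p6 and searched on both strands for the core GAANNTTC. Of 28 tested chaperone genes 22 were matched to the window table, and 11 held the core in 12 of their 31 windows (38.7%), against 7.86% of all 32851 windows. A match is only a run of letters, and the share describes a list drawn up as heat shock genes, not the knockouts. The 250 bases before the start are shown, 5′ to 3′ on the strand of the gene with the core in capitals, for Hspa1b, which had one of the largest differences of the list, and for Dnaja1, a second Hsp70 co-chaperone whose difference was 0.24 ± 0.14.
Hspa1b, chr17:34959239-34959488, minus strand: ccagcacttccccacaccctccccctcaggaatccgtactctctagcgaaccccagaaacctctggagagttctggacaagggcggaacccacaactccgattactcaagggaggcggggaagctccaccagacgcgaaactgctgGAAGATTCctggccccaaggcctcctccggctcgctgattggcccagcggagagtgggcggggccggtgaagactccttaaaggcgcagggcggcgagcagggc
Dnaja1, chr4:40722218-40722467, plus strand: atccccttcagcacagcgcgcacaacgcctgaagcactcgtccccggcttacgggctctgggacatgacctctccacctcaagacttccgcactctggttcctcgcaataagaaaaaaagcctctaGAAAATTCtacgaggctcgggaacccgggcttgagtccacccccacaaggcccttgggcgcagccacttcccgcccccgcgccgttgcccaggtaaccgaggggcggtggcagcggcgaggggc
The core starts at base -104 from the start in Hspa1b and -124 in Dnaja1, counting the base before the start as -1. Windows 2 and 3 of Dnaja1, which are not shown, did not hold the core, and its difference was 0.11 without knockout 4. In Chordc1 the letters occur at -4 and 7, and neither of the 2 windows of Dnajb1 nor the window of Ahsa2 held them. Genes with the core were not the ones with the larger differences throughout: Bag3, Hspb8 and Dnaja4 also held it, and their estimates were -0.02, -0.02 and -0.0047.

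Genes of the ER stress response were also mostly higher. Of 22 listed 21 were tested, 20 had a positive estimate (50.9% of all genes), 5 were higher at an unadjusted p under 0.05 (0.912%) and none was lower. The median log2 difference was 0.25. The summed level of the list was 1244, 1379, 1005 and 1063 CPM in wild types and 1233, 1332, 1123 and 1878 in knockouts. Knockouts 1 to 3 thus lay within the wild type range of that sum. Knockout 4 was the highest of the 8 libraries for 21 of 21 genes, against 29.0% of all genes. Without it the median was 0.11, with 17 of 21 estimates positive (49.6% of all genes) and 3 higher at an unadjusted p under 0.05 (2.82%).

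Creld2 (ENSMUSG00000023272, chr15:88819646-88826683, plus strand), a secreted ER stress protein, was at 11.97, 10.6, 9.74 and 8.77 in wild types and 12.05, 14.2, 12.8 and 19.2 in knockouts. The groups did not overlap, although knockout 1 was almost level with wild type 1. The log2 difference was 0.51 ± 0.16, with an unadjusted p of 0.0077, and it was 0.35 without knockout 4. Dnajb11, an ER co-chaperone of BiP, was at 20.2, 22.2, 19.5 and 21.2 in wild types and 22.5, 25.1, 24.9 and 28.3 in knockouts. It too did not overlap, with a difference of 0.28 ± 0.09, and 0.23 without knockout 4.

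Pdia4, a protein disulfide isomerase, was at 32.8, 34.5, 25.3 and 26.0 in wild types and 35.8, 39.1, 33.1 and 55.2 in knockouts. Manf, a secreted ER protein with trophic activity on neurons, was at 15.6, 16.95, 10.5 and 11.9 in wild types and 16.98, 18.8, 15.04 and 22.9 in knockouts. In both genes wild types 1 and 2 were above wild types 3 and 4, so that the groups overlapped. The differences were 0.46 ± 0.16 for Pdia4 and 0.42 ± 0.17 for Manf, and 0.28 and 0.30 without knockout 4. Hspa5, the gene of the ER chaperone BiP, was at 173.1, 199.9, 132 and 134 in wild types and 177, 195.4, 156 and 296 in knockouts. Knockouts 1 to 3 of Hspa5 lay within the wild type range, and the difference was 0.37 ± 0.20 with all libraries and 0.15 without knockout 4.

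Among the transcription factors of the response, Xbp1 had a difference of 0.33 ± 0.17, and 0.14 without knockout 4. Atf4 was at 0.03 ± 0.13 and its targets Asns and Chac1 at 0.05 ± 0.15 and -0.18 ± 0.18. Chac1, an enzyme that breaks down glutathione, was the 1 list member with a negative estimate.

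The ER stress response element, CCAAT and CCACG spaced by 9 bases (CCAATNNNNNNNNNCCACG), was searched for in the same windows after the list's values had been seen. It occurred in 6 of the 19 windows of the 19 matched genes (31.6%), against 0.119% of all windows. The list was drawn up as genes of this response, so the share describes the list and is no result about the knockouts. The 250 bases before the start are shown for Creld2 and Dnajc3, which hold the element and had an unadjusted p under 0.05, and for Hspa5, with the element in capitals.
Creld2, chr15:88819396-88819645, plus strand: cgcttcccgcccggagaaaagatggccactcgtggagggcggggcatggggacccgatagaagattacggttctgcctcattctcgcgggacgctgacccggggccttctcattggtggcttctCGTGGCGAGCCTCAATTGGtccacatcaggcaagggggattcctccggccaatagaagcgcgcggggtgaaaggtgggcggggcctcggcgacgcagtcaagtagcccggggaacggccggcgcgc
Dnajc3, chr14:118937682-118937931, plus strand: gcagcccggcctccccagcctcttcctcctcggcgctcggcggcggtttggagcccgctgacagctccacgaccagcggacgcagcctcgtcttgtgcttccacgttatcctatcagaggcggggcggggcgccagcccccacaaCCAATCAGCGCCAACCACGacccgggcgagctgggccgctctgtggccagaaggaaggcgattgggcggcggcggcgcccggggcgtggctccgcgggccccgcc
Hspa5, chr2:34771840-34772089, plus strand: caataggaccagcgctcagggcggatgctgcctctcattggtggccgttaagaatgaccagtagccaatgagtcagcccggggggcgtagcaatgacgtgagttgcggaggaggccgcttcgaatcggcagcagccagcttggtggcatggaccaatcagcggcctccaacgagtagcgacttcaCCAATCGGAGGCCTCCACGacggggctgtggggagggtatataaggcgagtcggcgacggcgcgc
The element starts at -126 in Creld2, where it lies on the opposite strand, at -105 in Dnajc3 and at -65 in Hspa5. The unadjusted edgeR p of Dnajc3 was 0.046 with all libraries and 0.079 without knockout 4. Pdia6, Calr and Hsp90b1 also held the element, with log2 differences of 0.27 ± 0.15, 0.26 ± 0.14 and 0.19 ± 0.16. Without knockout 4 these differences were 0.11, 0.11 and 0.03. In Pdia4 and Dnajb11 these letters were not in the window, and Manf was not in the table.

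**Figure D3:**
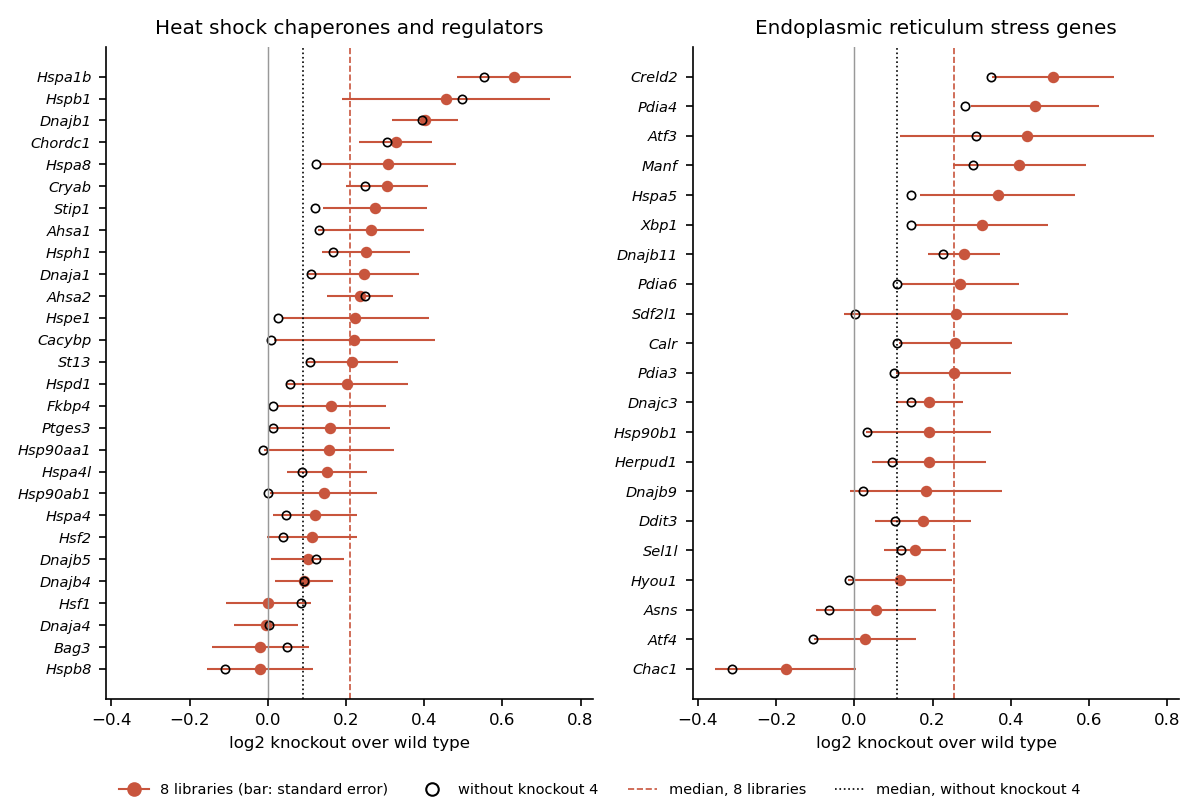
Log2 difference of knockout over wild type (horizontal axis) for each tested member of the list of heat shock chaperones and regulators (left) and the ER stress list (right). Filled red points are edgeR estimates from 8 libraries with bars of 1 standard error, open points the estimates without knockout 4, and vertical lines the medians of each. The medians move from 0.21 to 0.09 and from 0.25 to 0.11 without knockout 4, while Dnajb1 and Chordc1 stay almost in place.

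Targets of the glucocorticoid receptor, a list that holds Tsc22d3, were mixed. Of 28 listed 26 were tested, 18 had a positive (50.9% of all genes) and 8 a negative estimate, and 2 were higher at an unadjusted p under 0.05 (0.912%). The median was 0.09. The second of the 2 was Cdkn1a, the cell cycle inhibitor p21, at 4.25, 5.73, 4.47 and 4.73 in wild types and 5.97, 7.71, 6.36 and 5.47 in knockouts. Its groups overlapped at wild type 2 and knockout 4, and the difference was 0.41 ± 0.15. Well-known targets were nearly equal: Sgk1, a kinase that regulates sodium transport, differed by 0.02 ± 0.16, Fkbp5, a brake on the receptor, by 0.11 ± 0.18, Per1 by -0.08 ± 0.12 and Klf9 by 0.03 ± 0.07. Knockout 4 was the lowest of the 8 libraries for Sgk1, Fkbp5, Per1 and Zbtb16. Fkbp5 was at 24.9 in knockout 4 against 36.5, 45.7 and 46.0 in knockouts 1 to 3 and 29.4 to 42.1 in wild types. Without knockout 4 the list median was 0.14 and 7 of 26 members were higher at an unadjusted p under 0.05 (2.82% of all genes), among them Zbtb16 at 0.48 ± 0.17, Plin4 at 0.38 ± 0.14 and Fkbp5 at 0.28 ± 0.12. The receptor's response element, ACANNNTGT, was in none of the windows of Tsc22d3 and Cdkn1a, and in 5 of 34 windows of the list (14.7%) against 6.85% of all windows. That share, too, describes the list and not the knockouts.

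Endothelial transcripts were high in knockouts 2 and 3, while knockouts 1 and 4 lay within the wild type range of their summed level. All 15 endothelial markers were tested, 13 had a positive estimate (50.9% of all genes), 2 were higher at an unadjusted p under 0.05 (0.912%), and the median was 0.27. Without knockout 4, which was the highest library for none of them, 14 of 14 tested were positive (49.6% of all genes), 4 were higher at an unadjusted p under 0.05 (2.82%) and the median was 0.46. Ly6c1 (ENSMUSG00000079018, chr15:75044018-75048830, minus strand), a surface protein of brain endothelium, was at 3.80, 3.74, 3.88 and 5.15 in wild types and 5.76, 6.82, 7.36 and 6.80 in knockouts. The groups did not overlap, wild type 4 was the highest wild type, and the log2 difference was 0.70 ± 0.15. Ly6a was at 2.32, 2.20, 2.61 and 3.08 in wild types and 3.53, 3.29, 3.87 and 3.26 in knockouts, a difference of 0.45 ± 0.16. Both belong to a cluster of similar genes, and their counts are uncertain in so far as reads could be shared within it.

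Other endothelial markers differed among themselves. Kdr differed by 0.48 ± 0.25, Egfl7 by 0.47 ± 0.30, Esam by 0.35 ± 0.16 and Flt1 by 0.33 ± 0.28, none with an unadjusted p under 0.05. Some others were closer to equal. Cldn5, the tight junction protein of the blood-brain barrier, differed by 0.04 ± 0.18, Tek by -0.01 ± 0.16 and Pecam1 by 0.18 ± 0.19. The summed level of the 15 markers was 99.4, 110, 139 and 153 CPM in wild types and 128, 173.4, 179 and 116 in knockouts, so that the groups overlapped. Rgs5, a marker of pericytes, was at 21.5, 25.1, 24.5 and 32.2 in wild types and 30.4, 36.6, 40.9 and 36.4 in knockouts, with overlap at wild type 4 and a difference of 0.48 ± 0.13. Over the 10 tested mural markers, Rgs5 included, 5 estimates were positive and 5 negative, with Notch3 lower in every knockout, at 17.5 ± 0.86 in wild types and 15.2 ± 0.75 in knockouts (mean ± SD, n = 4 each). Markers of meningeal fibroblasts varied most between libraries, with summed levels of 55.4, 59.1, 137 and 110 CPM in wild types and 51.6, 197, 139 and 69.2 in knockouts. The part of vessel and meningeal content in the values of Ly6c1 and Rgs5 was not tested.

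Vasopressin and oxytocin are both made by large hypothalamic neurons and released from the posterior pituitary. They were the 2 feeding and neuroendocrine peptides lower at an unadjusted p under 0.05 with all libraries (1.91% of all genes were). Of 28 tested peptide genes 13 had a positive (50.9% of all genes) and 15 a negative estimate, with a median of -0.0016, and none was higher at that threshold. Knockout 4 was the highest library for 13 of the 28, against 29.0% of all genes. Without it Penk (-0.28 ± 0.11), Gal (-0.36 ± 0.16) and Tac2 (-0.25 ± 0.11) were also lower at that threshold (2.27% of all genes were then). Avp (ENSMUSG00000037727, chr2:130580620-130582554, minus strand) was at 161, 161, 136 and 124 scaled CPM in wild types and 109, 119, 99.3 and 105 in knockouts. Every knockout was below every wild type, and the log2 difference was -0.43 ± 0.10, with an unadjusted p of 0.0016. The neighbouring Oxt (chr2:130576173-130577054, plus strand) was at 91.9, 83.3, 69.7 and 85.5 in wild types and 61.5, 50.02, 37.9 and 74.1 in knockouts. Knockout 4 overlapped the wild types, and the difference was -0.56 ± 0.17 with it and -0.72 ± 0.14 without it.

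The peptides of the feeding circuit were close to equal. Agrp, the melanocortin antagonist of hunger neurons, was at 7.67, 6.23, 7.21 and 7.54 in wild types and 6.65, 7.02, 6.30 and 6.48 in knockouts. Npy, made by the same neurons, was at 5.89, 5.57, 4.77 and 3.88 in wild types and 2.86, 5.35, 3.21 and 7.16 in knockouts, so that the knockouts spread wider than the difference of the means. Pomc, the precursor of the satiety peptide alpha-MSH, was at 21.2, 24.9, 11.98 and 17.5 in wild types and 19.1, 18.0, 22.2 and 17.8 in knockouts. The log2 differences were -0.12 (95% interval -0.37 to 0.14) for Agrp, -0.10 (-0.70 to 0.49) for Npy and 0.02 (-0.39 to 0.44) for Pomc. Those of Cartpt (-0.28 to 0.29), Hcrt (-0.25 to 0.25), Trh (-0.50 to 0.40) and Sst (-0.33 to 0.19) also had intervals on both sides of 0. For Pmch the interval was -0.19 to 0.65 and for Crh, the peptide that starts the stress axis, -0.71 to 0.96. Knockout 4 was the highest library for Pmch, Npy, Hcrt, Trh and Crh. Without it the estimate changed from 0.13 to -0.44 for Crh, from 0.23 to 0.05 for Pmch and from -0.10 to -0.40 for Npy. Receptors of the circuit gave 11 positive and 12 negative estimates of 23 tested, a median of -0.02 and none with an unadjusted p under 0.05.

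**Figure D4:**
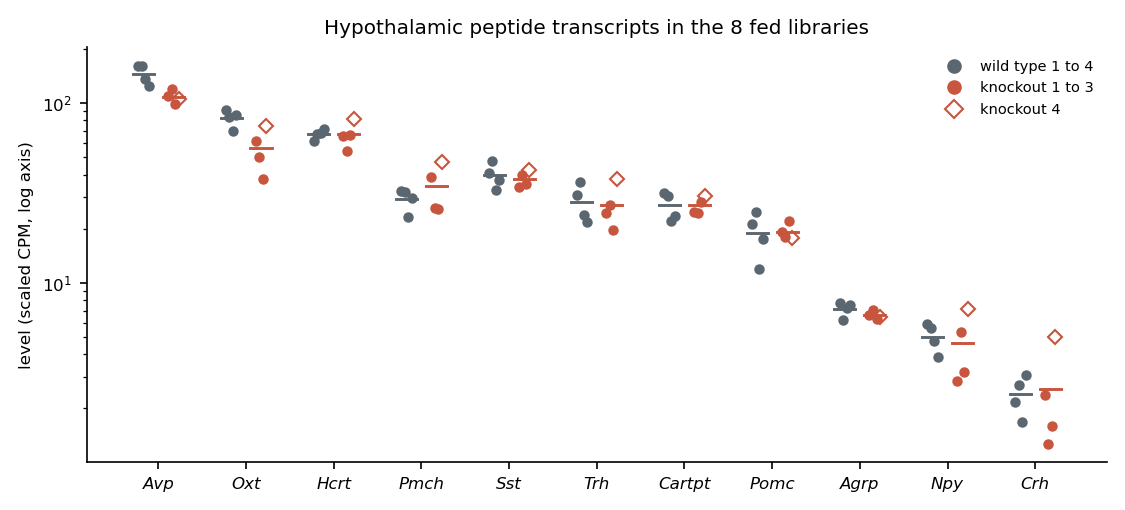
Level in scaled CPM on a log axis (vertical) of 11 peptide transcripts (horizontal) in the 8 fed libraries. Grey points are wild types, filled red points knockouts 1 to 3, open diamonds knockout 4, and bars group means. For Avp all knockouts are below all wild types, for Oxt knockouts 1 to 3 are, and for the other 9 the groups overlap.

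Transcription factors that mark hypothalamic regions had more negative than positive estimates. Of 21 tested 8 had a positive (50.9% of all genes) and 13 a negative estimate. The median was -0.04, and 3 were lower at an unadjusted p under 0.05 (1.91% of all genes were). With 1 library left out the median ran from -0.12 to 0.04, so its sign depended on the library left out. Dlx2 was also lower at that threshold without knockout 4, at -0.55 ± 0.14 (2.27% of all genes were then). Otp, needed for the neurons that make Avp, Oxt, Crh and Trh, was at 33.3, 38.9, 28.2 and 30.5 in wild types and 26.9, 24.9, 26.1 and 28.6 in knockouts. The groups overlapped only at knockout 4, and the difference was -0.30 ± 0.10. Rax, a factor of tanycytes, the glia that line the floor of the third ventricle, was at 2.20, 2.45, 1.64 and 1.38 in wild types and 1.09, 1.08, 1.55 and 1.05 in knockouts, a difference of -0.71 ± 0.24. Six3 was at 21.2 ± 1.499 in wild types and 17.9 ± 2.09 in knockouts (mean ± SD, n = 4 each). Dio2, the enzyme with which tanycytes activate thyroid hormone, stood the other way, at 8.17, 10.5, 7.59 and 7.23 in wild types and 8.93, 12.9, 12.1 and 12.7 in knockouts, with a difference of 0.48 ± 0.15. Of 10 tested tanycyte markers 4 were positive and 6 negative.

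Myelin genes were mostly higher in knockouts, and knockout 4 was the highest library for 7 of 11, against 29.0% of all genes. Of 11 oligodendrocyte markers 10 had a positive estimate (50.9% of all genes), 2 were higher at an unadjusted p under 0.05 (0.912%), and the median was 0.19, or 0.14 without knockout 4. Cldn11, the tight junction protein of myelin, was at 69.6, 53.6, 74.3 and 63.9 in wild types and 71.0, 80.2, 80.2 and 91.9 in knockouts, a difference of 0.31 ± 0.11. Mal was at 80.9, 80.8, 89.3 and 82.0 in wild types and 84.5, 98.0, 91.1 and 116 in knockouts, a difference of 0.23 ± 0.10. Without knockout 4 the differences were 0.25 for Cldn11 and 0.14 for Mal, with unadjusted edgeR p-values of 0.03 and 0.079. The summed level of the 11 markers lay between 2540 and 3176 CPM in wild types and was 3022, 3154, 3095 and 3887 in knockouts. Neuron, astrocyte and microglia markers had medians of 0.05, 0.05 and 0.04, and no member of these 3 lists had an unadjusted p under 0.05.

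Besides Avp, 11 genes were named by the ranking among those lower in knockouts. Acr, the sperm protease acrosin, was at 5.05, 5.69, 6.75 and 6.75 in wild types and 4.31, 3.78, 4.09 and 3.70 in knockouts. Ccdc88b, a microtubule-linked protein of immune cells, was at 4.71, 5.19, 5.06 and 5.15 in wild types and 3.53, 3.19, 3.82 and 2.86 in knockouts. Nek10, a kinase of motile cilia, was at 51.4, 54.0, 46.7 and 48.6 in wild types and 42.0, 37.6, 40.9 and 33.4 in knockouts. In all 3 the groups did not overlap, and the log2 differences were -0.61 ± 0.14, -0.59 ± 0.14 and -0.38 ± 0.09.

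Ak8, an adenylate kinase of cilia, was at 6.72, 5.03, 7.80 and 7.86 in wild types and 4.57, 4.71, 4.59 and 4.51 in knockouts. Crocc2, a relative of the ciliary rootlet protein rootletin, was at 12.1, 13.3, 12.8 and 14.7 in wild types and 8.88, 11.3, 10.9 and 8.81 in knockouts. Rp1, an axonemal protein of photoreceptors, was at 6.27, 5.65, 5.69 and 6.003 in wild types and 4.26, 4.22, 4.92 and 4.43 in knockouts. These 3 also separated the groups fully, with differences of -0.57 ± 0.15, -0.41 ± 0.12 and -0.41 ± 0.12. Markers of the ciliated ependyma, the cells that line the ventricles, had 4 positive and 8 negative estimates of 12, with a median of -0.12, and none had an unadjusted p under 0.05. Their summed CPM ranged over 225 to 267 for wild types and 203 to 238 for knockouts, with overlap. Transcripts of the choroid plexus, the other tissue of the ventricles, summed to 102, 95.7, 93.2 and 89.95 CPM in wild types and 85.7, 83.3, 76.6 and 80.9 in knockouts, so that every knockout was below every wild type. Of its 11 markers 7 were tested, 3 with a positive and 4 with a negative estimate, and Prlr, the prolactin receptor, had an unadjusted p of 0.035 with a difference of -0.26 ± 0.11. Prlr made up most of that sum, at 71.5, 59.4, 69.1 and 65.8 scaled CPM in wild types and 63.0, 56.1, 58.3 and 44.7 in knockouts, with overlap, while the defining markers Ttr and Folr1 did not pass the filter on low counts. The part of either tissue in the values of Nek10, Ak8 and Crocc2 was not tested.

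The remaining ranked genes that were lower were Rnf17, a Tudor domain protein of germ cells, Kdm8, a JmjC domain hydroxylase, Zfp982, the photoreceptor channel subunit Cnga3 and the pseudogene Nlrp5-ps. Their log2 differences were -0.70 ± 0.20, -0.38 ± 0.11, -0.32 ± 0.09, -0.59 ± 0.17 and -0.63 ± 0.18, and none of their groups overlapped. Zfp982 was tight in knockouts, at 9.50, 9.62, 9.40 and 9.13 against 12.5, 11.5, 11.6 and 11.3 in wild types. Among all 348 genes that were lower at an unadjusted p under 0.05, 60.9% were protein-coding and 18.1% lincRNAs, against 81.3% and 6.85% of all genes tested. Among the 166 that were higher the shares were 85.5% and 4.82%. The lower genes also had the smaller median level, a log2 CPM of 2.01 against 3.18 for the higher ones and 3.85 for all genes. The reason for this imbalance was not tested.

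The ranked genes were then read in fasted mice. In the fasted libraries, which share no sample with the fed ones, edgeR called 0 of 18569 genes (0.0%), with 1360 at an unadjusted p under 0.05 (7.32%), 529 of them higher (2.85%) and 831 lower (4.48%), and DESeq2 called 21 (0.0685%). Of the 12 genes ranked higher in fed knockouts 3 had a positive fasted estimate, against 51.0% of all genes, and their median was 0.41 in fed and -0.10 in fasted mice. Of the 12 ranked lower 5 had a negative fasted estimate, a share near the 49.0% of all genes, and their median was -0.50 in fed and 0.02 in fasted mice. Nlrp5-ps and Cnga3 were lower in both, with fasted differences of -0.87 ± 0.24 and -0.43 ± 0.15, and P4ha2 was higher in both, at 0.19 ± 0.08 in fasted mice.

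Tsc22d3 and Dnajb1 stood in opposite directions in the 2 feeding states. After the fast Tsc22d3 was at 95.3, 117, 162 and 122 scaled CPM in wild types and 80.2, 88.6, 95.7 and 94.8 in knockouts, the reverse of the fed order, with 1 knockout above the lowest wild type. Its fasted difference was -0.47 ± 0.13, against 0.38 ± 0.07 in fed mice. Dnajb1 was at 41.4, 42.4, 48.9 and 44.6 in fasted wild types and 35.7, 40.6, 34.9 and 35.1 in fasted knockouts, without overlap, and its differences were -0.28 ± 0.08 fasted and 0.40 ± 0.08 fed. Fed and fasted libraries carry different batch numbers in the labels and were scaled separately, so their levels are set side by side only within each state.

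The interaction of genotype and feeding, fitted on all 16 E5 libraries, was called for 0 of 19319 genes (0.0%) by edgeR, with 1150 at an unadjusted p under 0.05 (5.95%), and for 2 by DESeq2 (0.00621%). Feeding state and batch number coincide in these libraries, so an interaction with feeding and one with batch cannot be told apart. The 5 genes of smallest p were Dnajb1, Tsc22d3, Espn, Slc38a2 and Cep76. For Dnajb1 the interaction was -0.69 ± 0.12 with an edgeR adjusted p of 0.22 and a DESeq2 adjusted p of 0.000245. For Tsc22d3 it was -0.86 ± 0.16 with adjusted p-values of 0.54 and 0.013. Slc38a2, with -0.72 ± 0.16, followed the same pattern, and Espn, an actin-bundling protein, stood the other way, with 0.95 ± 0.21, at 7.43 ± 1.15 in fed wild types, 5.397 ± 0.53 in fed knockouts, 6.48 ± 1.27 in fasted wild types and 9.25 ± 0.52 in fasted knockouts (mean ± SD, n = 4 each). Cep76, a centrosomal protein, had -0.90 ± 0.20. The fed libraries enter both the ranking and the interaction, so the interaction is not independent of the choice of Tsc22d3, Dnajb1 and Slc38a2.

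**Figure D5:**
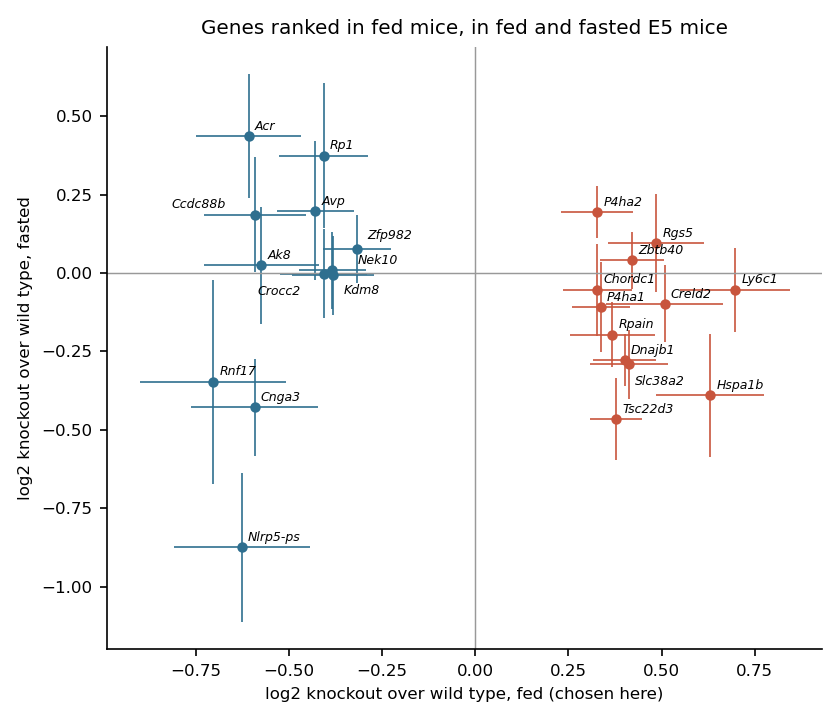
Log2 difference of knockout over wild type in fed mice (horizontal axis), which chose the genes, against the same difference in fasted mice (vertical axis) for the 12 genes per direction ranked in fed mice. Points are edgeR estimates and bars 1 standard error. Most genes on the right lie below 0 in fasted mice, Tsc22d3 at -0.47 and Hspa1b at -0.39 among them.

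The authors' deposited table for this comparison, which has a likelihood ratio column, lists 18213 genes and gives 5 an adjusted p under 0.05 (0.0275%) and 852 an unadjusted p under 0.05 (4.68%). The 5 are Gadl1, Prl, Gh, Gm21983 and H3c2, and they are named here because the table calls them. Gadl1, a relative of the glutamate decarboxylases, has a log2 fold change of wild type over knockout of 1.18 and an adjusted p of 0.0024 in the authors' deposited table. Its counts were 73, 63, 37 and 49 in wild types and 20, 24, 18 and 25 in knockouts, without overlap, and the quasi-likelihood estimate for it was -1.18 ± 0.23 with an unadjusted p of 0.00028. Its mean was below the level required of the ranked genes. Prl and Gh, hormones of the anterior pituitary, rest on 1 library: Prl had 222 counts in wild type 4, 4 in wild type 1 and 0 in the other 6, and Gh had 159 in wild type 4 and 1 in wild type 1. Gm21983 and H3c2 had at most 10 and 27 counts in any library, and like Prl and Gh they did not pass the filter used here.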

How the data were processed

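RNA of adult B6 mouse hypothalamus was extracted with a Qiagen RNeasy kit and made into libraries with the Ultra II DNA kit, per the labels' protocols. The authors deposited raw counts per Ensembl gene. HISAT2, Bowtie2, edgeR and mm10 are named in the submitters' processing notes without versions, and the counting tool, annotation release and strand are not given in the sources used here. No mitochondrial gene has a count in the fed table.

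Fed counts were fitted with edgeR 4.0.16 in R 4.3.3, with TMM normalization, the default filter of filterByExpr (minimum count 10, minimum total 15), a quasi-likelihood test and Benjamini-Hochberg adjustment over all genes at 0.05. The script was tested on simulated data. DESeq2 1.42.0 was an alternative, beside RLE normalization, other filters, each library left out, a replicate block, a model of all 16 libraries, protein-coding genes only and, added later, a likelihood ratio test and removal of a GC trend. Of the genes listed, 55141 matched GENCODE M21 for biotype and position. Levels are CPM scaled by the normalization factor, and marker sums are CPM of the library total. Depth sets the precision of low genes: the median standard error was 0.142 over all tested genes and 0.123 over genes whose mean log2 CPM was 1 or more.

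The authors' deposited table gives a log2 fold change per gene, with wild type in the numerator, and p-values, and its 8 columns of per-library values were not used. Named genes were Fto and 4 neighbours, up to 12 genes per direction of smallest p whose mean log2 CPM was 1 or more, up to 4 members per list with an unadjusted p under 0.05, 11 peptides, and the 5 interaction genes of smallest p, without predicted gene models. Other list members are named by role. The members, lists and rules were chosen with earlier results of these data known. Wild type and knockout libraries carry the numbers 1 to 4, which do not mark animals shared between genotypes, so no block entered the fit.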

Additional observations from a re-analysis of the deposited data

Results flagged for a closer look

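In 152 groups of 4 libraries, made of the named genes and summed marker lists by genotype, 10 had 1 library far from the other 3 by Dixon's criterion at the 95% level. Chance alone marks about 1 in 20 groups, so the number of such groups is no result.

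Among genes, Ly6c1 was at 5.15 scaled CPM in wild type 4 against 3.74 to 3.88 in the other wild types. Cirbp, a cold-inducible RNA-binding protein, was at 32.9 in knockout 4 against 22.0 to 23.3 in the other knockouts. Its wild types were at 34.0, 35.5, 28.8 and 29.1, so that only knockout 4 overlapped them. Rax was at 1.55 in knockout 3 against 1.05 to 1.09, and Mal at 89.3 in wild type 3 against 80.8 to 82.0.

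Among summed markers, oligodendrocyte transcripts were at 3887 CPM in knockout 4 against 3022 to 3154 in the other knockouts, and ependymal ones at 267.3 in wild type 2 against 224.7 to 231.9. Striatal transcripts were at 488.3 in wild type 3 against 429.8 to 439.7. Anterior pituitary transcripts were at 21.4 in wild type 4 against 1.20 to 3.76, and at 0.898 in knockout 4 against 2.62 to 2.96 in the other knockouts. Skeletal muscle transcripts were at 5.89 in knockout 2 against 5.05 to 5.13.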

How the results depend on the processing

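The fed count of 0 called genes was 0 under RLE normalization, both other filters, each library left out, the replicate block, the model of 16 libraries, protein-coding genes and the GC trend, and it was 1 with DESeq2 and 2 with the likelihood ratio test. DESeq2 called 21 genes in fasted mice and 2 for the interaction (Dnajb1 at -0.70 and Tsc22d3 at -0.87), against 0 with edgeR. Genes with an unadjusted p under 0.05 numbered 843 without a filter and 365 to 931 with 1 library left out. Those higher numbered 516 without knockout 4 and 109 without knockout 2, and those lower 220 without wild type 3 and 230 without wild type 4. The replicate block, with numbers that do not pair the libraries (correlations of same-numbered deviations of 0.0961, -0.21, 0.60 and -0.39, and 2 of 8 libraries correlating best with their own number), gave 445 such genes, 133 higher and 312 lower.

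Over 57 named genes 48 kept their direction in every alternative, and 1, Tsc22d3 with DESeq2 (0.39), was ever called. The other 9 lie near 0. Irx5 was at 0.0064 with RLE, 0.011 with DESeq2, 0.0041 unfiltered, 0.0069 with 16 libraries and 0.034 with the GC trend removed. Hcrt was at 0.0091, 0.013, 0.0067, 0.0094 and 0.023 in the same order. Cartpt was at -0.0043 with the stricter filter, -0.0071 in protein-coding genes and -0.00037 with the GC trend removed. Crh was at -0.022 under the replicate block. With 1 library left out, the estimates ran from -0.077 to 0.085 for Fto, -0.26 to 0.19 for Irx5, -0.40 to 0.069 for Npy, -0.14 to 0.20 for Pomc, -0.084 to 0.090 for Cartpt, -0.10 to 0.096 for Hcrt, -0.25 to 0.10 for Trh, -0.44 to 0.36 for Crh and -0.15 to 0.039 for Sst. Medians ran from 0.09 to 0.29 for heat shock chaperones, 0.11 to 0.31 for ER stress and 0.12 to 0.46 for endothelial markers. The causes were not tested.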

Other observations

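Fto removes the m6A mark from RNA, and the other genes of the m6A machinery lay slightly above 0. Of 17 tested 16 had a positive estimate (50.9% of all genes) and Fto the negative one. The median log2 difference was 0.09, and none had an unadjusted p under 0.05. The methyltransferase subunits Mettl3 and Mettl14 were at 0.09 ± 0.11 and 0.14 ± 0.11, the demethylase Alkbh5 at 0.12 ± 0.10 and the reader Ythdf2 at 0.17 ± 0.10. Without knockout 4 the median was 0.07, with 14 of 17 positive (49.6% of all genes). Among immediate early genes 11 of 21 were positive (50.9% of all genes), with Fos at -0.25 ± 0.28 and Egr1 at -0.16 ± 0.24. Dusp6, a phosphatase that curbs ERK, was the 1 member with an unadjusted p under 0.05 (0.912% of all genes were higher at that threshold). Dusp6 was at 6.91, 6.90, 5.02 and 5.68 scaled CPM in wild types and 8.05, 10.1, 6.41 and 9.74 in knockouts. Of 22 tested genes of cholesterol synthesis 19 were positive (50.9% of all genes), with a median of 0.09 and none with an unadjusted p under 0.05. Knockout 4 was the highest library for 16 of the 22, against 29.0% of all genes. With 1 library left out the median of this list ran from 0.05 to 0.13.

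Highly expressed housekeeping groups turned with knockout 4. Of 74 ribosomal protein genes 47 were positive with all libraries and 1 without knockout 4, and their median was 0.04 and -0.15. Of 80 respiratory chain genes 55 and 17 were positive, and of 19 glycolytic and glucose transport genes 16 and 3. Knockout 4 was the highest library for 71, 69 and 16 of these genes. Its part in these medians is shown by the values without it.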
